A study of Mus musculus with 6 samples.

Results

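Transcripts of 10 integrin genes, 6 alpha chains (Itgal, Itga4, Itga6, Itga7, Itgae and Itgav) and 4 beta chains (Itgb1, Itgb2, Itgb3 and Itgb7), were followed in CD8+ T cells with and without exogenous sphingosine-1-phosphate (S1P). They were taken by gene symbol from the 56941 Ensembl identifiers of the count table, and all 10 were found. The cells came from the spleens of B6 mice with no further genetic change named, and all 6 samples were activated for 3 days with plate-bound anti-CD3, anti-CD28 and rIL2. At 24 h of activation, 3 cultures received S1P at 5 µM and 3 received vehicle. S1P is a blood and lymph lipid whose receptors include S1PR1. The labels call the samples biological replicates and do not say whether they came from separate mice, so that the p-values measure the spread between these samples. According to the labels the starting cells were purified naive CD8+ T cells, and the culture methods of the study also allow total splenocytes. Polyadenylated RNA was sequenced from strand-specific libraries, and between 12048880 and 17384084 reads per sample were counted on genes. S1P replicate 2 stood apart from the other libraries, with mitochondrially encoded genes at 7.80% of its counts against 4.10% to 4.93% in the other 5.

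Integrins are cell-surface receptors built from 1 alpha and 1 beta chain, and the chains reach the cell surface only after they have paired. On T cells, LFA-1 (Itgal with Itgb2) binds ICAM proteins on other cells, VLA-4 (Itga4 with Itgb1) binds VCAM-1 and fibronectin, and both slow lymphocytes on vessel walls and hold them to target cells. The beta 7 chain pairs with Itga4 to bind MAdCAM-1 of gut vessels and with Itgae to bind E-cadherin on epithelia. Itgav with Itgb1 or Itgb3 binds RGD-containing proteins such as vitronectin, and Itga6 and Itga7 with Itgb1 are laminin receptors, the latter best known from muscle.

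S1P-treated cells carried more Itga7, Itgb3 and Itgav transcript and less Itga4 and Itgal transcript than vehicle-treated cells. Itga7 differed most, with an 8.71-fold higher level, and the other 4 differed by 1.28-fold to 1.57-fold. Changes are given as the log2 fold change of S1P over vehicle (log2FC), its standard error (SE) and padj, the edgeR quasi-likelihood p-value adjusted by Benjamini-Hochberg over all tested genes. A gene was called where padj did not exceed 0.05 and log2FC was 0.3 or more in either direction, and this called 3 of the 10 integrin genes higher and 2 lower. Among the 13299 genes tested, 12.7% were higher and 10.4% lower by the same rule, 23.1% in all, so that changed genes were common in this comparison. All 10 integrin genes had enough counts to be tested. Itgb2 met the padj limit with a log2FC of smaller size, and Itga6, Itgae, Itgb1 and Itgb7 did not pass it. For 8 of the 10 genes every S1P library lay on 1 side of all vehicle libraries, 4 higher and 4 lower after S1P, against 45.6% of all tested genes, with 23% higher and 22.6% lower.

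**Figure D1:**
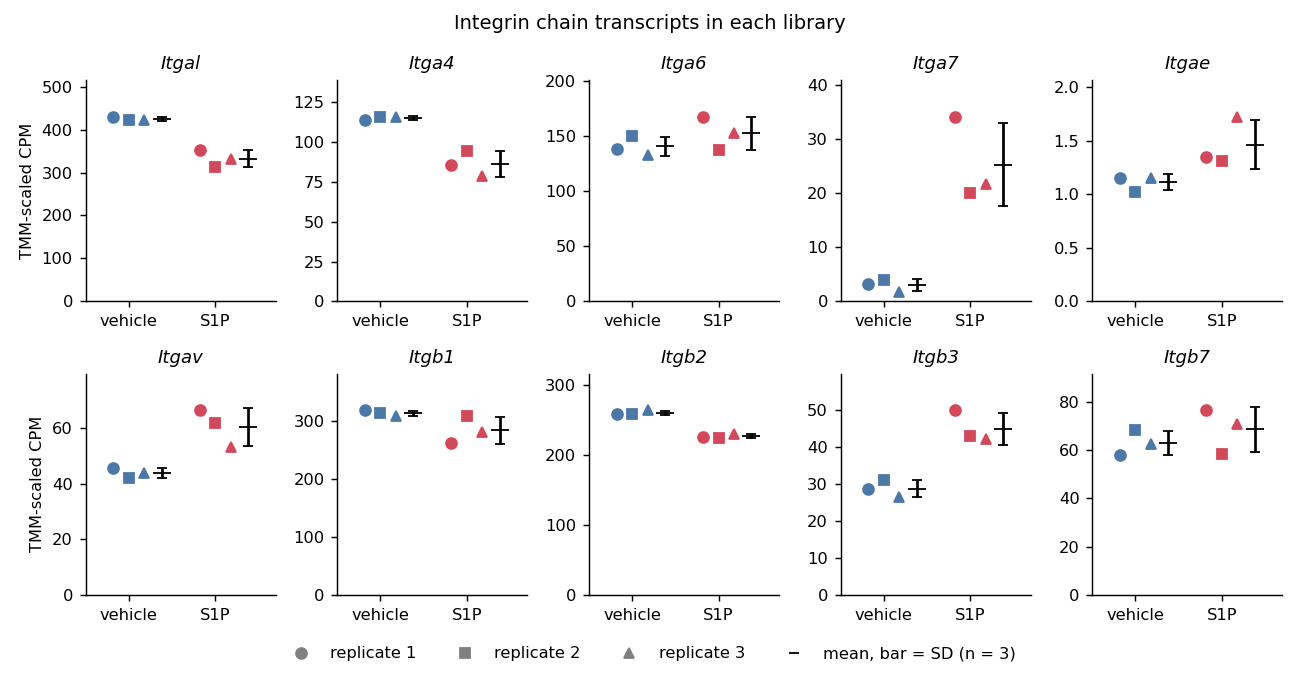
Level of each integrin gene in every library, in CPM (counts scaled to library size), with linear axes that start at 0 and a separate scale for each gene; marker shapes give the replicate number and black bars the mean and SD of 3 libraries. The 3 S1P libraries lie above all vehicle libraries for Itga7, Itgae, Itgav and Itgb3 and below them for Itgal, Itga4, Itgb1 and Itgb2, and the groups overlap for Itga6 and Itgb7.

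The chains of LFA-1 had the highest mean transcript levels per kilobase of the 10 genes in both groups, though Itgal and Itgb1 overlapped in the S1P libraries. Both LFA-1 chains were lower after S1P. Itgal (ENSMUSG00000030830, chromosome 7 from 126895432 to 126934320 of GRCm39, plus strand) had levels of 430.1, 422 and 422 CPM (counts scaled to library size with TMM factors) in vehicle replicates 1, 2 and 3. It had 353, 313 and 331 CPM in S1P replicates 1, 2 and 3. The lowest vehicle library lay well above the highest S1P library, and the mean fell from 425 ± 4.62 to 332 ± 19.9 CPM (SD, n = 3 each). The log2FC was -0.35 (SE 0.07, padj = 0.003). Itgb2 (ENSMUSG00000000290, chromosome 10 from 77366086 to 77401542, plus strand), the beta chain of LFA-1, had 258, 258 and 263 CPM with vehicle. With S1P it had 226, 224 and 229 CPM, so that the groups did not overlap and the coefficient of variation within them was 1.13% and 1.21%. Its log2FC of -0.20 (SE 0.06, padj = 0.03) was smaller than the threshold of 0.3. This padj was 0.0927, 0.0856 and 0.115 when vehicle replicates 1, 2 and 3 were left out and 0.0555 when S1P replicate 3 was, with log2FC values from -0.22 to -0.19.

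The alpha 4 chain fell, while neither of its beta partners passed the test. Itga4 (ENSMUSG00000027009, chromosome 2 from 79085660 to 79163467, plus strand) had 114, 116 and 116 CPM in the vehicle libraries. In the S1P libraries it had 85.8, 94.4 and 78.5 CPM. All 3 S1P values lay below all vehicle values, with a log2FC of -0.42 (SE 0.08, padj = 0.00206). Of the exon bases of Itga4, 20.8% lie under Cerkl on the opposite strand, and the strand setting of the counting is not given in the sources used here. Cerkl itself had between 1.67 and 2.36 CPM in the 6 libraries.

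Itgb1 (ENSMUSG00000025809, chromosome 8 from 129411876 to 129460618, plus strand), the shared beta chain of VLA-4 and of the laminin receptors, had 319, 314 and 309 CPM with vehicle and 263, 309 and 281 CPM with S1P. S1P replicate 2, at 308.7, was just under the lowest vehicle value of 308.9, and the log2FC of -0.14 (SE 0.07) did not pass the test (padj = 0.165). Itgb7 (ENSMUSG00000001281, chromosome 15 from 102124429 to 102140379, minus strand) had 58.0, 68.2 and 62.6 CPM with vehicle and 76.4, 58.4 and 71.0 CPM with S1P. Its groups overlapped through S1P replicate 2, the lowest of that group, and its log2FC was 0.13 (SE 0.10, padj = 0.358).

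Itgae (ENSMUSG00000005947, chromosome 11 from 72981409 to 73039917, plus strand) encodes CD103, which retains CD8+ T cells in epithelia and whose transcription is known to respond to TGF-β. It had the lowest level per kilobase of the 10 genes, with 20, 14 and 18 counts in the vehicle libraries and 24, 15 and 22 counts in the S1P libraries. After scaling, the vehicle libraries had 1.15, 1.03 and 1.16 CPM and the S1P libraries 1.35, 1.32 and 1.73 CPM, without overlap. The log2FC of 0.38 had a SE of 0.27 and did not pass the test (padj = 0.315), so that no difference was detectable at this depth. Without S1P replicate 3 the log2FC of Itgae was 0.25.

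Both chains of the alpha V beta 3 integrin, a vitronectin and osteopontin receptor, rose together. Itgav (ENSMUSG00000027087, chromosome 2 from 83554403 to 83637260, plus strand) had 45.7, 41.9 and 43.7 CPM with vehicle. With S1P it had 66.2, 61.7 and 53.0 CPM, all above the vehicle values. The log2FC was 0.46 (SE 0.09, padj = 0.00302). Itgb3 (ENSMUSG00000020689, chromosome 11 from 104498826 to 104561302, plus strand) had 28.5, 31.0 and 26.5 CPM with vehicle and 49.7, 42.7 and 41.9 CPM with S1P. Its S1P libraries also lay above all vehicle libraries, with a log2FC of 0.65 (SE 0.09, padj = 0.000607). For both genes S1P replicate 1 was the highest library. Of the exon bases of Itgav, 5.14% lie under Gm13684 on the opposite strand, which had between 3 and 16 counts per library. Itgb3 is abundant in platelets, and the platelet markers Itga2b, Pf4, Ppbp, Gp9, Gp1bb and Gp1ba together held between 1.54 and 2.83 CPM in vehicle libraries and between 1.13 and 1.81 CPM in S1P libraries, with Gp1bb at 0 counts in all 6 libraries. Those ranges overlapped between the groups.

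Of the laminin-binding alpha chains, Itga7 rose and Itga6 did not pass the test. Itga7 (ENSMUSG00000025348, chromosome 10 from 128769621 to 128794169, plus strand) was counted 54, 54 and 28 times in vehicle replicates 1, 2 and 3. In S1P replicates 1, 2 and 3 it was counted 607, 228 and 277 times. As scaled levels these are 3.11, 3.96 and 1.80 CPM with vehicle and 34.2, 20.0 and 21.7 CPM with S1P, without overlap. The mean went from 2.96 ± 1.09 to 25.3 ± 7.71 CPM (SD, n = 3 each). The log2FC of 3.12 (SE 0.26, padj = 2.4e-05) was the 13th largest rise among the 13299 genes tested. Replicates of Itga7 varied more than those of the other members, with a coefficient of variation of 36.8% with vehicle and 30.5% with S1P, and the log2FC lay between 2.83 and 3.36 when each library was left out in turn. Exons of Itga7 share 3.82% of their bases with genes of the opposite strand, of which Tmt1b had at most 2 counts in any library. The others, Gm67752 and Gm67756, are not among the counted identifiers, so that their levels are not known.

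Itga6 (ENSMUSG00000027111, chromosome 2 from 71575960 to 71689757, plus strand), which pairs with Itgb1 or Itgb4 as a laminin receptor, had 138, 150.1 and 133 CPM with vehicle and 168, 137 and 152 CPM with S1P. The groups overlapped, and the log2FC of 0.12 (SE 0.08) did not pass the test (padj = 0.307).

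**Figure D2:**
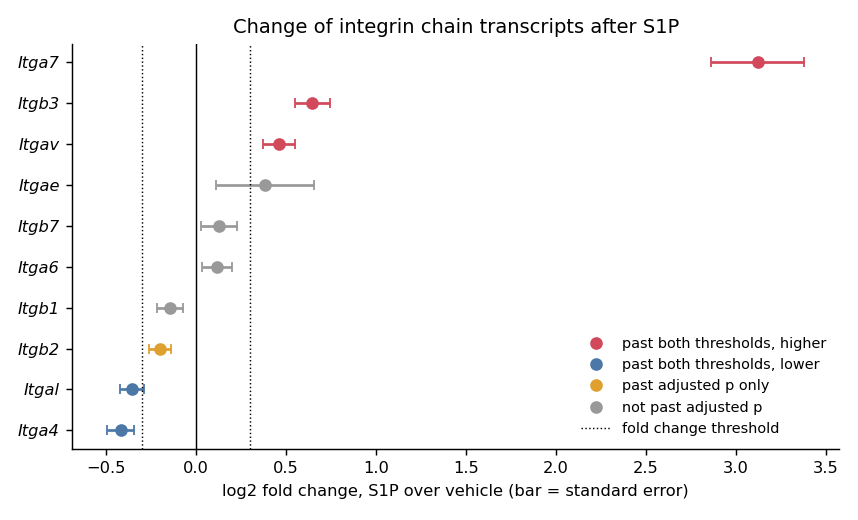
Log2 fold change of each integrin gene after S1P, from edgeR's quasi-likelihood fit over all genes with 3 libraries per group; bars are standard errors and dotted lines mark the fold change threshold of 0.3. Itga7 stands at 3.12, Itgb3 at 0.65 and Itgav at 0.46, while Itga4 at -0.42 and Itgal at -0.35 are the 2 genes past both thresholds in the lower direction.

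The promoter table of RefSeq held 4 of the 10 genes (Itga4, Itgav, Itgb1 and Itgb7) and not Itgal, Itga6, Itga7, Itgae, Itgb2 and Itgb3. The 250 bases before the listed start are shown for the gene of this set that fell and the gene that rose, Itga4 at chr2:79255176-79255425 and Itgav at chr2:83724147-83724396, both on the plus strand of GRCm38.p6. Sequences are printed 5′ to 3′, and capitals mark matches on either strand to a GC box (GGGCGG), a RUNX motif (TGTGGT) or a SMAD motif (CAGAC).
Itga4: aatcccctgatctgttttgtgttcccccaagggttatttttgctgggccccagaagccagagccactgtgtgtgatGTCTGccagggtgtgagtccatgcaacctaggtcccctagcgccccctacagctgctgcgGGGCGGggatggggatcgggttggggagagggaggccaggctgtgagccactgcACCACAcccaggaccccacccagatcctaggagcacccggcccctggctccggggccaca
Itgav: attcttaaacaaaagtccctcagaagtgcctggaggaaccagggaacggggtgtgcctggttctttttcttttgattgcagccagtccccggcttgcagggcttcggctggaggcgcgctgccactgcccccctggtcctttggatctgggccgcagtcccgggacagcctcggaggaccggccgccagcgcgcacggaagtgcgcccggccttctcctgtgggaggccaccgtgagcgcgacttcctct

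The Itga4 window held 1 GC box, 1 RUNX match and 1 SMAD match, none of which overlap, and the Itgav window held no match to these letters. In the windows of Itgb1 and Itgb7 there were 3 and 2 SMAD matches, and that of Itgb1 had 1 GC box. Among 32851 promoter windows of the same length, 32.7% held the GC box, 14.0% the RUNX motif and 42.2% the SMAD motif, so that each is common. The core of the hypoxia response element (ACGTG), present in 16.6% of all windows, was found in none of the 4. The same held for the AP-1 motif (TGANTCA), present in 6.75%, and for the ETS core (CCGGAA), present in 12.03%. It held for the CCAAT box too, which 33.9% of all windows carry. Base composition was GC-rich in both printed windows, with 64.0% for Itga4 and 64.4% for Itgav against a median of 52.4% over all windows.

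The levels of the 10 genes were ordered per kilobase of exon, with the union of all exons of a gene as its length. With vehicle the order was Itgb2, Itgal, Itgb1, Itgb7, Itga6, Itga4, Itgb3, Itgav, Itga7 and Itgae, from 80.0 ± 0.90 for Itgb2 to 0.179 ± 0.012 CPM per kilobase for Itgae (SD, n = 3 each). No neighbours in this order overlapped over the 3 vehicle libraries at these lengths. If the longest transcript was the length instead, Itgav (7392 bases) stood above Itgb3 (5813 bases) with vehicle, and Itgb7 and Itga6 overlapped. After S1P, Itgb3 at 6.77 ± 0.65 CPM per kilobase stood above Itga4 at 5.15 ± 0.48. With vehicle they had 4.34 ± 0.34 and 6.88 ± 0.07, in the reverse order. This reversal depends on the length used, which was 6616 bases for Itgb3 and 16732 for Itga4. With their longest transcripts as lengths (5813 and 9951 bases), the mean of Itga4 stood above that of Itgb3 in both groups. The levels of Itga4 and Itgav overlapped after S1P, as did those of Itgal and Itgb1. Itga7 moved from 0.357 ± 0.131 to 3.05 ± 0.93 CPM per kilobase and stayed ninth, below Itgav at 4.89 ± 0.55.

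**Figure D3:**
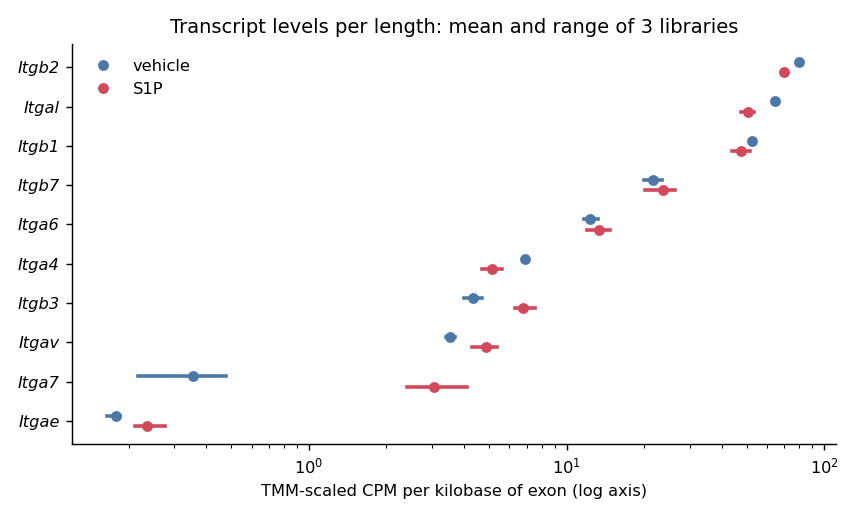
Level of each integrin gene as TMM-scaled CPM per kilobase of exon, on a log axis, with the mean as a point and the range of 3 libraries as a line for vehicle and S1P. Itgb2, Itgal and Itgb1 lie highest and Itgae lowest in both groups, and Itga7 moves from 0.357 to 3.05.

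Summed per kilobase, the 6 alpha chains came to 87.9 ± 0.98 with vehicle and 77.2 ± 5.32 with S1P, and the 4 beta chains to 159 ± 1.66 and 148 ± 0.70 (CPM per kilobase, SD, n = 3 each). Itgal made up between 72.6% and 74.0% of the alpha sum in vehicle libraries and between 64.5% and 66.6% in S1P libraries. The share of Itga7 was between 0.25% and 0.541% with vehicle and between 3.31% and 4.96% with S1P. Itgb2 made up 50.5% ± 0.76 of the beta sum with vehicle and 47.2% ± 0.36 with S1P, and Itgb3 2.73% ± 0.20 and 4.58% ± 0.45 (SD, n = 3 each). The sums and shares rest on the union of exons as length, and longest transcripts as lengths would give other values. These shares describe transcripts and not surface receptors.

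Chains of 1 receptor need not change by the same amount, so the alpha to beta ratio was taken in each library for 8 known partner pairs. The log2 ratio of Itgal to Itgb2 was -0.28, -0.31 and -0.34 in vehicle-treated and -0.38, -0.54 and -0.49 in S1P replicates 1, 2 and 3, a difference of -0.16. Itga4 was also lower relative to both of its partners, with differences in log2 ratio of -0.28 to Itgb1 and -0.54 to Itgb7. Itgav was higher relative to Itgb1 by 0.60, and Itga7 relative to Itgb1 by 3.27. For these 5 pairs the libraries of the groups did not overlap, and the exact permutation test (two-sided) gave p = 0.1, the smallest it can give for 3 samples against 3 (0.16 after Benjamini-Hochberg adjustment over the 8 pairs).

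The ratio of Itgav to Itgb3 had a log2 mean of -0.29 ± 0.16 with vehicle and -0.47 ± 0.10 with S1P (SD, n = 3 each), with overlapping libraries (exact permutation test, two-sided, p = 0.2). The sign of these 2 means depends on the lengths used, 12334 bases for Itgav and 6616 for Itgb3. With their longest transcripts (7392 and 5813 bases) both means lay above 0, and the difference of -0.18 was the same. Differences of 0.26 for Itga6 to Itgb1 and of 0.27 for Itgae to Itgb7 were likewise within the overlap of the groups (exact permutation tests, two-sided, p = 0.2 and 0.3). The difference for Itga6 to Itgb1 was 0.13 without S1P replicate 1 and 0.39 without S1P replicate 2. That for Itgae to Itgb7 was 0.15 without vehicle replicate 2, 0.40 without S1P replicate 1 and 0.17 without S1P replicate 3. This exact test cannot give a p under 0.1 for any pair. Pairs that share a chain are not independent of each other.

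**Figure D4:**
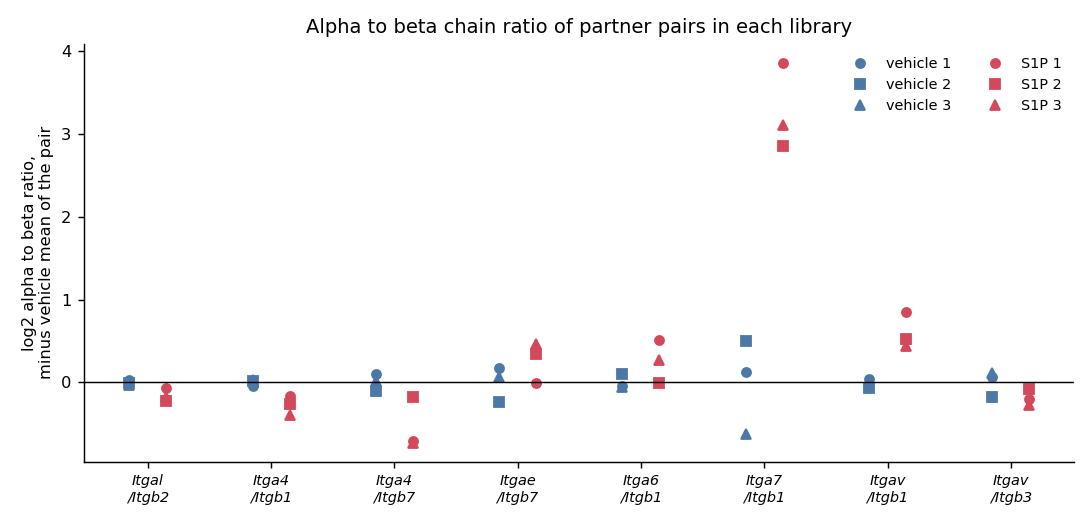
Log2 ratio of the alpha to the beta chain (CPM per kilobase) in each library for 8 partner pairs, drawn as the distance from the vehicle mean of that pair; colours give the group and shapes the replicate. Itga7 to Itgb1 lies far above its vehicle mean in the S1P libraries, by 3.27 on average, and the 2 pairs of Itga4 lie below theirs in all 3.

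Beyond these 10 genes, 17 other integrin chain genes were listed, and 8 of them had enough counts to be tested. Itga9, the alpha chain of a receptor for tenascin, osteopontin and VCAM-1, fell from 2.15 ± 0.40 to 0.827 ± 0.123 CPM (SD, n = 3 each), a log2FC of -1.40 (SE 0.29, padj = 0.00426). Itga3, another laminin receptor chain, had 5.13, 5.43 and 6.11 CPM with vehicle and 9.68, 6.14 and 8.01 CPM with S1P, a log2FC of 0.54 (padj = 0.0425). Itgb8, which pairs with Itgav to free latent TGF-β, went from 2.33 ± 0.49 to 3.85 ± 0.67 CPM (SD, n = 3 each), a log2FC of 0.69 (padj = 0.0414). Both calls were lost in several fits, in which the log2FC stayed above 0, and DESeq2 gave an adjusted p of 0.106 for both genes, with log2FC values of 0.51 for Itga3 and 0.69 for Itgb8. Itga3 lost its call when any 1 of the 3 vehicle libraries was left out (log2FC 0.47, 0.52 and 0.61, padj = 0.144, 0.112 and 0.0729 without replicates 1, 2 and 3), without S1P replicate 1 (log2FC 0.35, padj = 0.169) and without S1P replicate 3 (0.53, padj = 0.106). Itgb8 lost it when any 1 vehicle library was left out (log2FC 0.80, 0.54 and 0.76, padj = 0.0685, 0.141 and 0.083 without replicates 1, 2 and 3) and without S1P replicates 2 and 3 (log2FC 0.57 and 0.66, padj = 0.0947 and 0.107). Itga2, Itga2b, Itga5, Itga10 and Itgb4 were tested and did not pass, with log2FC values between -0.65 and 0.58. The median log2FC of the 8 genes was -0.08, against 0.01 over all genes tested. Itga8, Itga11, Itgad and Itgb2l had at most 3 counts in every library.

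Among 19 genes for integrin ligands and their partners, 9 were tested, with 2 higher, 2 lower and a median log2FC of 0.10. The shares over all genes tested were 12.7% higher and 10.4% lower. Icam2, a ligand of LFA-1, fell from 20.5 ± 0.90 to 11.5 ± 1.75 CPM (SD, n = 3 each), a log2FC of -0.82 (SE 0.12, padj = 0.000584). Icam1, its other main ligand, had a log2FC of 0.15 and did not pass (padj = 0.251). Spp1, which encodes osteopontin, fell by 0.49 on the log2 scale (padj = 0.0126) and by 0.35 without vehicle replicate 3, where it lost its call (padj = 0.0636). Lama5, a laminin alpha chain, rose from 2.16 ± 0.28 to 4.64 ± 1.49 CPM (SD, n = 3 each), a log2FC of 1.14 (SE 0.25, padj = 0.00647), while Lamc1, a laminin gamma chain, passed the adjusted p with a log2FC of 0.27. Lrrc32, which holds latent TGF-β at the cell surface, rose by 0.66 (padj = 0.0144), and lost its call without vehicle replicate 1 (0.58, padj = 0.0693), vehicle replicate 3 (0.53, padj = 0.0724) and S1P replicate 3 (0.65, padj = 0.0517). Icam4 and Vtn had 0 counts in all 6 libraries.

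Of 24 genes that regulate the switch of integrins to the binding state, 22 were tested, with 2 higher, 2 lower and a median log2FC of -0.04. Among all genes tested, 12.7% were higher and 10.4% lower. The list pools activators with genes known to restrain integrins or RAP1, namely Sharpin, Itgb1bp1, Sipa1, Rap1gap2, Rasa3, Flna and Dok1, so that its counts and median have no direction of activation. The core of this machinery did not pass the test: Tln1 (talin) had a log2FC of -0.16, Fermt3 (kindlin-3) -0.06, Rap1a -0.09, Rap1b -0.01 and Apbb1ip (RIAM) 0.15. Rapgef1, an exchange factor for RAP1, fell by 0.40 (SE 0.07, padj = 0.00242), and Itgb1bp1 (ICAP-1), an inhibitor that binds the beta 1 tail, by 0.43 (SE 0.10, padj = 0.00824). Rassf5, the RAP1 effector RAPL, passed the adjusted p with a log2FC of -0.27, as did the restraining gene Sipa1 at -0.20. Flna, also a restraining gene, passed it with a log2FC of -0.297, just short of the fold threshold. The list had 3 lower genes with DESeq2, with RLE factors, with total counts only, without a filter on low counts and when vehicle replicate 2, vehicle replicate 3 or S1P replicate 3 was left out, and 4 without S1P replicate 1. Fyb1, the adaptor ADAP, rose by 0.42 (padj = 0.0195), with S1P replicate 2 at 319 CPM and the other S1P libraries at 224 and 230.

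Without S1P replicate 2 the log2FC of Fyb1 was 0.24, under the threshold, and without vehicle replicates 1, 2 and 3 the padj was 0.0554, 0.0701 and 0.0766. Skap2, an adaptor that binds ADAP, rose by 0.38 (padj = 0.0326) and lost its call with DESeq2 (adjusted p = 0.0607), without S1P replicate 2 (0.27, padj = 0.0646) and without vehicle replicates 1, 2 and 3 (padj = 0.112, 0.101 and 0.0668).

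Signalling genes that act after an integrin has bound its ligand numbered 24, and 20 were tested, with 2 higher, 1 lower and a median log2FC of -0.03. All tested genes together had 12.7% higher and 10.4% lower. Bcar1, the scaffold p130Cas, was counted 4, 7 and 8 times with vehicle and 59, 38 and 25 times with S1P, a log2FC of 2.79 (SE 0.37, padj = 0.000311). It passed the filter on low counts through its S1P libraries alone, so that no conclusion is drawn from this padj. With at least 10 counts in every sample or a mean count of at least 50 as the filter, Bcar1 was not tested. The list then had 1 higher gene. Ptk2, the focal adhesion kinase FAK, rose from 12.6 ± 1.52 to 17.7 ± 0.89 CPM (SD, n = 3 each), a log2FC of 0.48 (SE 0.11, padj = 0.00886). Its relative Ptk2b (PYK2) did not pass, with a log2FC of -0.08. Tns1, the focal adhesion protein tensin 1, fell by 0.33 (padj = 0.014) and lost its call without vehicle replicate 2 (-0.27, padj = 0.0657) and without S1P replicate 3 (-0.31, padj = 0.0531). Paxillin (Pxn), vinculin (Vcl) and zyxin (Zyx) had log2FC values of -0.20, 0.11 and -0.19 and did not pass.

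Membrane proteins that sit beside integrins were 12, with 11 tested, 4 higher, 0 lower and a median log2FC of 0.21. Over all genes tested, 12.7% were higher and 10.4% lower, with a median of 0.01. Cd82, Slc3a2 and Cd37 passed the adjusted p alone, with log2FC values of 0.27, 0.21 and -0.23. Bsg (basigin) rose by 0.68 (SE 0.08, padj = 0.000137) and the tetraspanin Cd81 by 0.47 (SE 0.08, padj = 0.00134). Cd44, a hyaluronan receptor, rose by 0.32, and lost its call under the fold threshold without vehicle replicate 2 (0.27), with total counts only (0.30) and without a filter on low counts (0.29). The tetraspanin Cd53, at 0.31, lost its call in the same way with DESeq2 (0.29), with total counts only (0.28), without a filter (0.28) and without S1P replicate 1 (0.24), and its padj was 0.0586 and 0.0514 when vehicle replicates 1 and 3 were left out.

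The list of tissue residency and exit, Itgae included, held 10 genes, and 9 were tested, with 4 higher, 0 lower and a median log2FC of 0.34. Over all genes tested, 12.7% were higher and 10.4% lower, and the median was 0.01. Besides Itgae, the tested genes Prdm1, Cxcr6, Klf2 and Zfp683 did not pass, with log2FC values of 0.41, 0.27, 0.14 and 0.03. The list pools genes known from residency, such as Cd69 and Runx3, with genes known from exit and recirculation, such as S1pr1 and Ccr7. Its counts and median therefore have no direction of residency. Runx3, a transcription factor of CD8+ T cells, rose by 0.54 (padj = 0.0018) and Cd69 by 0.34 (padj = 0.00555). Cd69 had a log2FC of 0.28 without vehicle replicate 2, under the threshold. Ccr7 rose by 0.43 with overlapping groups, and by 0.29 without S1P replicate 1 (padj = 0.0501), and its padj was 0.0662 and 0.0957 without vehicle replicates 1 and 3 and 0.0778 without S1P replicate 3. S1pr1 rose by 0.34 (padj = 0.0405), and lost its call in all 6 fits that each left out 1 library, with log2FC values from 0.29 to 0.37 and padj from 0.0552 to 0.138. With all libraries its call was also lost with DESeq2 (0.32, adjusted p = 0.134), with total counts only (0.31, padj = 0.0661) and without a filter on low counts (0.31, padj = 0.187). Itga1, the other residency integrin of the list, had at most 7 counts in any library and was not tested.

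**Figure D5:**
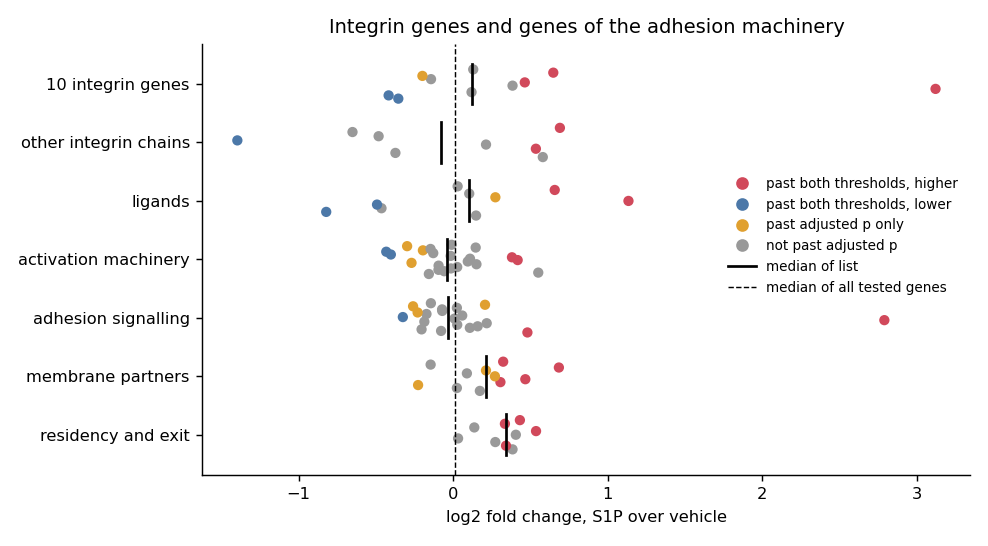
Log2 fold change after S1P of every tested gene of the 10 integrin genes and of 6 hand-written lists; each point is a gene coloured by its call, short black lines are list medians and the dashed line is the median of all 13299 tested genes. Itga7 at 3.12 and Bcar1 at 2.79 lie apart from the rest, and Bcar1 passed the filter on low counts through its S1P libraries alone. Most genes of the activation machinery lie near 0.

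The cultures carried the transcripts of CD8+ T cells, and also those of other lymphocytes. Cd3e had between 212 and 309.9 CPM. Cd8a had between 207 and 251 CPM with vehicle and between 132 and 144 CPM with S1P. Of the 7 markers of CD8+ T cells, none was at 0, and their sum was between 3142 and 3892 CPM with vehicle and between 3019 and 3190 CPM with S1P. Most of this sum was Gzmb, with between 2010 and 2642 CPM in each library. Cd8a and Cd8b1 fell by 0.67 and 0.55 on the log2 scale. Cd3d and Cd3g passed the adjusted p with log2FC values of -0.28 and -0.21 (padj = 0.0129 and 0.0444), and Cd3e, Trac and Gzmb did not pass, with 0.15, -0.08 and -0.10. The part of these markers in the lower Itgal and Itga4 levels was not tested. The 5 B cell markers Ms4a1, Cd79a, Cd79b, Ebf1 and Pax5 summed to between 461 and 574 CPM in vehicle and between 484 and 576 CPM in S1P libraries, with Ms4a1 lower and Ebf1 higher after S1P and none at 0. Cd4, Cd40lg and Foxp3 together had between 207 and 247 CPM with vehicle and between 219 and 288 CPM with S1P, with Cd40lg higher. Per kilobase of exon, Cd4 had a mean of 45.2 CPM with vehicle and 48.6 with S1P, and Cd8a 61.0 and 38.3. In the S1P libraries Cd4 (43.3 to 56.6) thus lay above Cd8a (36.3 to 39.6). Cd4 itself did not pass the test (log2FC 0.10, padj = 0.487). The 6 dendritic cell markers, of which Cd74 and H2-Aa are also B cell genes, summed to between 671 and 836 CPM with vehicle and between 561 and 685 CPM with S1P, with H2-Aa lower. The 4 NK markers, nearly all of whose counts were Eomes, a gene of CD8+ T cells too, summed to between 63.5 and 68.5 CPM with vehicle and between 32.2 and 44.6 CPM with S1P, with Eomes lower. Of 8 myeloid markers, S100a8 and S100a9 had 0 counts in all libraries, and the sum was at most 5.70 CPM. The 5 stromal markers summed to between 69.1 and 74.2 CPM with vehicle and between 80.5 and 85.0 CPM with S1P, without overlap. Nearly all of this was Pecam1, which T cells also express and which did not pass the test (log2FC 0.19, padj = 0.0558). In bulk RNA, fewer cells of a type and less RNA per cell cannot be told apart, and the part of B cells and CD4 T cells in the integrin levels was not tested.

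S1P replicate 2, with its higher mitochondrial share, was the lowest S1P library for Itgal, Itga6, Itga7, Itgae, Itgb2 and Itgb7 and the highest for Itga4 and Itgb1. Without it the 5 integrin calls held, with log2FC values of 3.27 for Itga7, 0.69 for Itgb3, 0.45 for Itgav, -0.48 for Itga4 and -0.31 for Itgal. Itga6, Itgb7 and Itgb1 then passed the adjusted p, with log2FC values of 0.19, 0.23 and -0.20 that were under the threshold of 0.3 (padj = 0.0417, 0.03 and 0.014). Without S1P replicate 1 the same genes had log2FC values of 0.04, 0.04 and -0.09 and did not pass (padj = 0.717, 0.781 and 0.373).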

How the data were processed

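RNA-seq libraries of 3 vehicle-treated and 3 S1P-treated samples were used, grouped by their labels. After Trim Galore, STAR alignment (GRCm39 in the submitters' processing notes) and featureCounts, the authors deposited raw whole-number counts for each gene. Versions, annotation release, strand setting and the handling of multi-mapping reads are not given in the sources used here.

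Symbols, positions and exon lengths came from GENCODE vM39 (GRCm39), which holds 56323 of the 56941 identifiers. Counts were filtered with filterByExpr, given TMM factors, and fitted in edgeR 4.0.16 under R 4.3.3 by quasi-likelihood on treatment alone. P-values were adjusted by Benjamini-Hochberg across the 13299 genes that passed the filter. The common biological coefficient of variation was 0.0826. The script was tested on simulated data with known changes. Promoter windows came from RefSeq (GRCm38.p6). Between 12048880 and 17384084 reads were counted per sample, and precision is lowest for scarce genes.

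Alternatives were DESeq2 1.42.0, limma-voom (limma 3.58.1), RLE, upper-quartile or no factors, 3 other filters, other thresholds, the replicate number as a block and the fit without each library. The integrin genes and the lists of genes were chosen with earlier results of these data known. The text names all 10 integrin genes, tested chains of the family and genes of the lists past both thresholds, with some other members beside them. A few genes first placed on the lists were removed from them and are not reported here. All other list genes are in the counts and sums, named or not.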

Additional observations from a re-analysis of the deposited data

How the results depend on the processing

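The calls of 3 higher and 2 lower integrin genes were unchanged in number with DESeq2, limma-voom, the other scaling factors, the other filters, the replicate block and each fit without 1 library. With padj as the only threshold, Itgb2 joined them and the counts were 3 and 3. With a log2 fold change of at least 1, 1 integrin gene (Itga7) was higher and 0 were lower, and over all genes 383 were higher and 82 lower, where the threshold of 0.3 gave 1687 and 1384. No integrin gene changed its sign in any fit in which it was tested. No difference in alpha to beta ratio did when each library was left out, the only alternative run that could change it. The labels do not say whether same-numbered samples of the 2 groups belong together. Their deviations from the group means had correlations of 0.12, -0.01 and 0.05 for replicates 1, 2 and 3. With 3 samples per group these values cannot settle whether the samples were paired. With the replicate number as a block, 1697 genes were higher and 1423 lower, the integrin counts stayed at 3 and 2, and Itgb8 had an adjusted p of 0.055. With a mean count of at least 50 as the filter, Itgae was not tested, nor were the called list genes Itga9, Itgb8 and Bcar1. The list of other integrin chains then had 1 higher and 0 lower genes. Without any filter, with DESeq2 and with total counts only, the log2 fold change of Itgav was 0.43, 0.44 and 0.44.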
